A study of Rattus norvegicus with 4 samples.

Results

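Circadian clock genes were examined in rat cochlear lateral wall after a local dose of 3-nitropropionic acid (3-NP), which blocks succinate dehydrogenase, complex II of the mitochondrial respiratory chain. The set comprised 9 genes chosen by symbol, Hlf, Tef, Dbp, Per1, Per2, Per3, Nr1d1, Nr1d2 and Bmal1, among 13810 genes named on the 2 array designs. All 9 were on the day 1 design, with 12 probe sets, and 3 of them (Tef, Per2 and Per3) were also on the day 3 design, with 4 probe sets. The symbols were chosen with earlier results of these arrays known, so their values are given as a description, without a test.

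The 4 groups, each with 1 array, were saline at day 1, 300 mM 3-NP at day 1, saline at day 3 and 300 mM 3-NP at day 3. All came from female Sprague-Dawley rats of 8 to 10 weeks and 180 to 210 g whose left round window niche was infused and whose right cochlea was destroyed, in controls as well. The labels place the tissue in the upper basal turn, and their protocol calls it the second turn without the stria vascularis. The sources used here do not give the number of animals behind an array, the hour of tissue collection, or whether the saline and 3-NP tissue of a day was taken at the same hour.

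The mammalian clock is a feedback loop of transcription. BMAL1 pairs with CLOCK or NPAS2 and activates genes with E-box elements, among them the Per, Cry, Nr1d and Dbp genes, while PER and CRY proteins repress that activation and the nuclear receptors encoded by Nr1d1 and Nr1d2 (REV-ERB alpha and beta) repress Bmal1 through ROR elements (RORE). DBP, TEF and HLF form the PAR bZIP family of activators, which bind D-box elements and carry the rhythm to output genes. The cochlea is known to hold such a clock, and transcript levels of these genes depend on the time of day in most tissues.

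To show the elements through which this loop is wired, the 250 bases before each annotated start were searched on both strands in RefSeq sequence of the GRCr8 assembly, which held 9 windows for 8 of the genes, all but Hlf. The letters searched were CACGTG (E-box), CACGTT (E-box variant), TTATGTAA or TTACGTAA (D-box), TAGGTCA or TAGGTTA (RORE core) and TGACGTCA (cyclic AMP response element). Matches of different elements did not overlap in these windows. Each 30-base stretch below has the match in capitals and reads 5′ to 3′ along the gene's strand.
Tef E-box: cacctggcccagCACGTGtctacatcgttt
Per2 D-box: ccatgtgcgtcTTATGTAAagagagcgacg
Per2 E-box variant: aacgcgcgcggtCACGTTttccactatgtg
Nr1d1 E-box, second window: tgtcagctcccaCACGTGtctggggatcct
Nr1d1 E-box variant, first window: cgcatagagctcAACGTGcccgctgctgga
Bmal1 RORE, distal: tggtcggaaagTAGGTTAgtggtgcgacat
Bmal1 RORE, proximal: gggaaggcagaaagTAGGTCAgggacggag

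The Tef stretch lies at chr7:115206617-115206646 (plus strand). Those of Per2 lie at chr9:99497167-99497196 and chr9:99497038-99497067 (minus strand), with the D-box 192 and the E-box variant 62 bases before the start. Nr1d1 has 2 annotated starts, with stretches at chr10:84229628-84229657 and chr10:84231969-84231998 (minus strand). In the latter the variant is on the opposite strand. The Bmal1 stretches lie at chr1:176766265-176766294 and chr1:176766298-176766327 (plus strand), 52 and 16 bases before the start. No searched letters were in the windows of Dbp, Per1, Per3 and Nr1d2. Of 33469 windows of that length in the reference, 5.59% held the E-box, 4.07% the variant, 0.932% a D-box, 3.63% a RORE core and 1.59% the cyclic AMP element. The cyclic AMP element was in 0 of the 9 clock gene windows. A match describes the sequence, not binding in this tissue.

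The arrays measured MAS5 signal, a linear brightness per probe set. A signal under the 30th percentile of its array was taken as that floor. In the saline and 3-NP arrays it stood at 17.1 and 22.0 on the day 1 design and at 9.22 and 9.85 on the day 3 design. A gene counted as measured when a probe set reached the array median in at least 1 array of the pair, giving 6533 genes for day 1 and 3972 for day 3. The deposited day 1 arrays had medians of 44.9 and 60.7, so each ratio is given relative to the median measured gene, whose deposited 3-NP signal was higher by a log2 ratio of 0.44 at day 1 and of 0.10 at day 3. The saline and 3-NP arrays of a day share 1 design, and the other day's pair was on the other design, so signals were not compared between days. With 1 array in each group no difference has a replicate check. The only measured error is between probe sets of the same gene, and for 1 probe set's log2 ratio its SD was 0.35 over 733 genes at day 1 and 0.44 over 767 genes at day 3. That spread leaves out animals and dissections, and 2 SDs of it, 0.70 and 0.87, serve below as the yardstick.

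Spiral ligament genes marked the labelled tissue in every array: Gjb6, the connexin 30 gene, gave 3139 in saline and 761 in 3-NP on the day 1 design, and Coch, the cochlin gene, had 6548 and 5677 at day 3. Of the other ligament markers on the day 3 design, Tbx18 had 351 and 165, while Car3, with 16.8 and 11.1, was below the filter. Of 6 stria markers on the day 1 design, 5 were measured. Among them, Kcne1, a potassium channel subunit gene, had 1006 and 475, and Esrrb had 471 and 240. The potassium channel gene Kcnj10 was under the floor in both arrays of day 1. Stria markers were thus measured at day 1 in tissue that the protocol calls the second turn without the stria vascularis. At day 3, the stria markers Atp1b2 (2881 and 1356), Tyr (381 and 114) and Bsnd (44.7 and 12.5) were above the floor in both arrays. Tyrp1 was under the saline floor at day 3, with 69.4 in 3-NP. As a sign of RNA integrity, the Actb control signal at the 3′ end over that at the 5′ end ranged from 2.53 to 3.22 in the 4 arrays and was lower in 3-NP than in saline on both days. The same ratio for Gapdh went the other way at day 1, at 1.34 in saline against 1.46 in 3-NP, and was 1.26 against 1.17 at day 3.

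**Figure D1:**
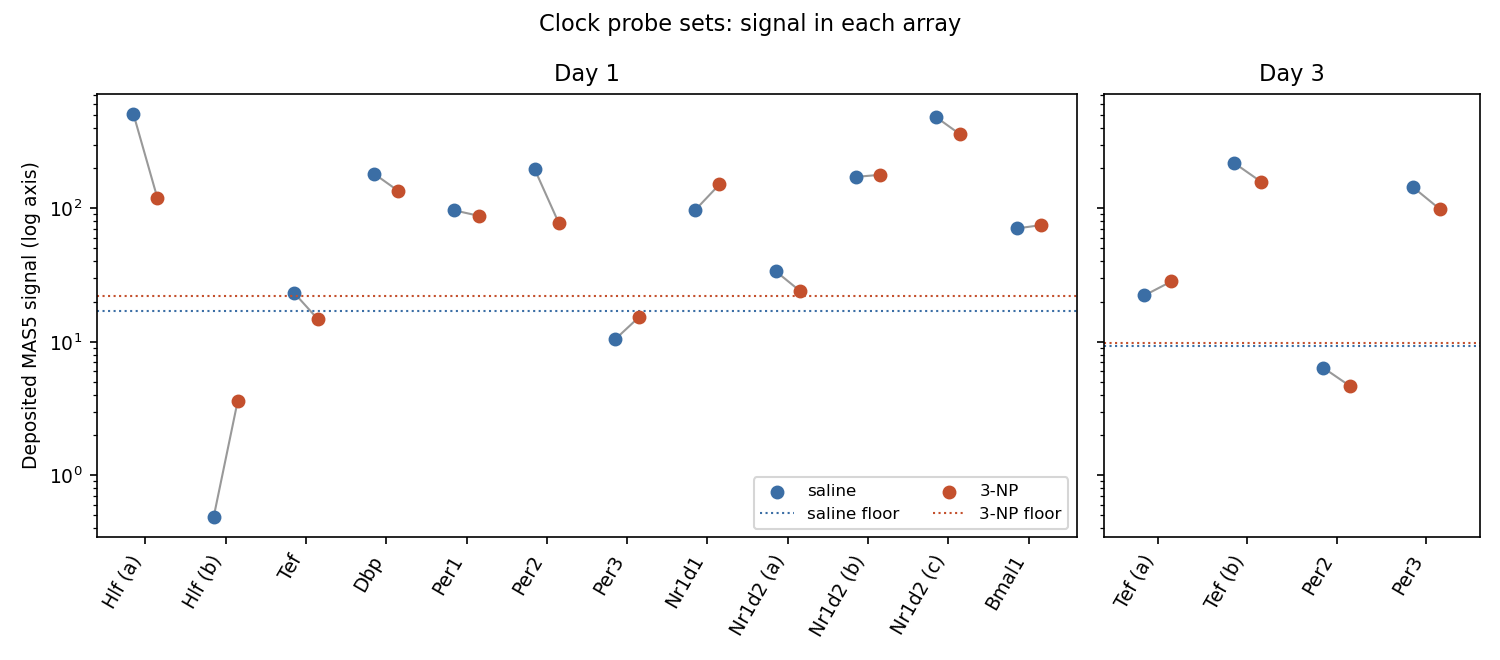
Deposited signal (log axis) of each probe set of the 9 clock genes in the saline (blue) and 3-NP (orange) array of each day, 1 array per point, with grey lines joining the same probe set and dotted lines at each array's floor; letters tell apart probe sets of a gene. Hlf (a) and Per2 have the largest measured differences at day 1, at 511 to 119 and 195 to 77.4, while the second Hlf probe set and Per3 at day 1, and Per2 at day 3, lie under the floor in both arrays.

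At day 1, 2 clock genes were at least 2-fold lower in the 3-NP array, the output activator gene Hlf and repressor gene Per2. Relative to the median gene, Hlf was 5.82-fold lower and Per2 3.42-fold lower. Dbp and Nr1d2 were 1.82-fold and 1.83-fold lower, and Per1, Bmal1 and Nr1d1 lay within the probe-set spread of the median gene. The day 1 pair measured 7 clock genes, of which 2 were at least 2-fold lower and 0 at least 2-fold higher, against 6.47% and 7.76% of all 6533 genes. Their median log2 ratio was -0.86, against 0 for all measured genes by construction. As deposited, without centring, the same counts were 2 and 0, against 2.62% and 17.9% of all genes, and the median was -0.42. Higher genes made up 54.5% of all genes at least 2-fold apart after centring and 87.2% as deposited. The other 2 clock genes, Tef and Per3, did not pass the filter.

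Among the PAR bZIP activators, the Hlf probe set 1374709_at read 511 in saline and 119 in 3-NP. The saline signal stood at percentile 95.3 of its array and the 3-NP signal at percentile 66.2. The log2 ratio was -2.54 relative to the median gene and -2.10 as deposited. Only 15 of the 6533 measured genes, or 0.23%, had a lower ratio, so Hlf was near the bottom of the whole distribution and far beyond the 2-SD yardstick. A second Hlf probe set, 1384811_at, had 0.486 and 3.61, both under the floor, and therefore gave no ratio. The Hlf difference thus rests on a single probe set.

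Dbp, the family member known for one of the largest daily amplitudes in liver, had 181 in saline and 135 in 3-NP. Its log2 ratio was -0.86, beyond the yardstick of 0.70, but -0.42 as deposited, within it. Of all measured genes 8.53% had a lower ratio. Tef had 23.3 in saline and 14.7 in 3-NP at day 1, the latter under the floor and both under the array medians. Its ratio is therefore a bound, at least 1.44-fold lower relative to the median gene (log2 ratio -0.52), but only -0.08 as deposited. The probe set was too dim to pass the filter.

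The Period genes encode the repressors that close the loop. Per2 had 195 in saline and 77.4 in 3-NP, at percentiles 84.4 and 55.5 of their arrays. Its log2 ratio was -1.77 (-1.34 as deposited), beyond the yardstick either way, and 1.13% of measured genes were lower. Like that of Hlf, the Per2 difference rests on a single probe set. Per1 had 96.4 in saline and 87.9 in 3-NP, a log2 ratio of -0.57 that became -0.13 as deposited. Both Per1 values lie within the yardstick. Per3 had 10.4 and 15.3, under the floor in both arrays of day 1, and gave no ratio.

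Of the REV-ERB genes, Nr1d1 was the single measured clock gene above the median gene. It had 97.3 in saline and 151 in 3-NP, a log2 ratio of 0.19 within the yardstick, or 0.63 as deposited. Nr1d2 was read by 3 probe sets. The brightest had 481 in saline and 357 in 3-NP (log2 ratio -0.87, or -0.43 as deposited, within the yardstick), the next 172 and 178 (-0.39), and the dimmest, below the filter, 33.8 and 24.1 (-0.93). All 3 lay below the median gene, and the middle one turned to 0.05 as deposited. The spread among them, from -0.93 to -0.39, is an example of probe-set error in this set. At day 3 the Tef probe sets lay further apart, at -0.57 and 0.25.

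Bmal1, the activator of the loop and the target of REV-ERB repression through elements like those printed above, had 70.6 in saline and 74.7 in 3-NP. Set against the median gene its log2 ratio was -0.36, which turned to 0.08 as deposited, and both lie within the yardstick. No direction can be given for Bmal1 at day 1.

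**Figure D2:**
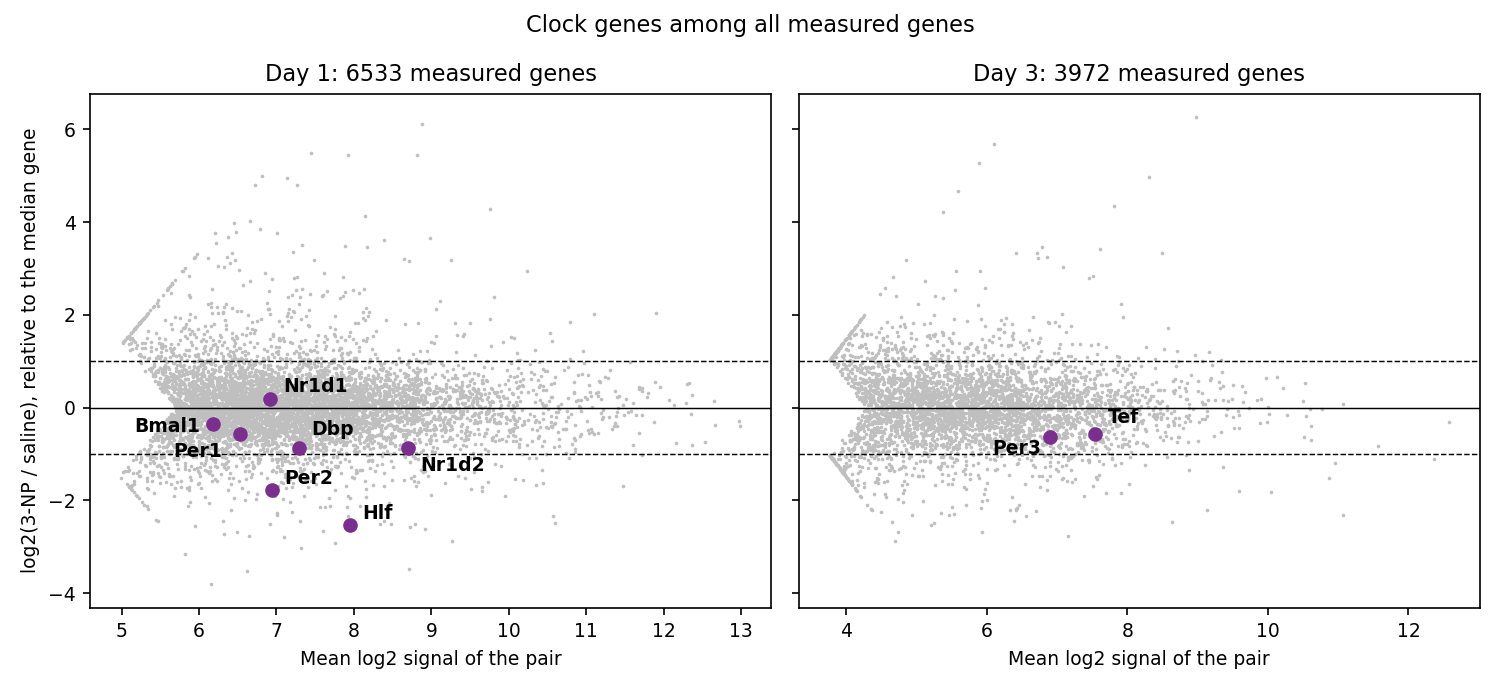
log2 ratio of 3-NP over saline relative to the median gene (vertical axis) against the mean log2 signal of the pair (horizontal axis) for all measured genes (grey) and the measured clock genes (purple), 1 array per group; dashed lines mark 2-fold. Hlf (-2.54) and Per2 (-1.77) lie below the dashed line at day 1 and Dbp, Nr1d2, Per1, Bmal1 (0.08 as deposited) and Nr1d1 between the lines, as do Tef and Per3 at day 3.

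Differences between clock genes within the day 1 pair do not depend on the centring, since both genes of a pair share the shift. The SD of such a difference between 2 probe sets of the same gene was 0.50 at day 1, and 2 SDs were 0.99. The log2 ratio of Hlf was lower than that of its relative Dbp by 1.68 and lower than that of Per2 by 0.77. The first gap exceeds 2 SDs and the second does not. Per2 had a log2 ratio lower than that of Per1 by 1.20, more than 2 SDs. Nr1d1 exceeded Nr1d2 by 1.06 through the brightest Nr1d2 probe set, just past 2 SDs, although the next Nr1d2 probe set stood nearer to Nr1d1. Nr1d1 also exceeded Dbp by 1.06, Per2 by 1.97 and Hlf by 2.74. These gaps were picked from 21 pairs after the values were seen, and the probe-set SD leaves out the spread between animals.

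At day 3, both measured clock genes, the output activator gene Tef and the repressor gene Per3, lay below the median gene by less than the yardstick. Of these 2 genes, 0 were at least 2-fold apart, against 8.18% of 3972 genes lower and 9.21% higher (6.42% and 10.9% as deposited). Their median log2 ratio was -0.61, or -0.51 as deposited. Tef had 219 in saline and 159 in 3-NP by its brighter probe set, a log2 ratio of -0.57, with 20.4% of measured genes lower. Its dimmer probe set went the other way, with 22.3 and 28.3 and a log2 ratio of 0.25. Per3 had 145 in saline and 99.0 in 3-NP, a log2 ratio of -0.65, with 17.4% of genes lower. All 3 values lie within the day 3 yardstick of 0.87. Per2 had 6.39 and 4.65, under the floor in both arrays of that design, and gave no ratio. No clock gene of the set was measured above the filter on both days, so persistence of the Hlf and Per2 differences was not analysed here.

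The further clock components were centred on the median gene at day 1. Of 21 further clock components, 13 were on the day 1 design and 10 were measured. After centring, 1 of them was at least 2-fold higher and 0 lower, against 7.76% and 6.47% of all genes. As deposited, 3 were higher and 0 lower, against 17.9% and 2.62%. The median of the 10 components was -0.03, or 0.41 as deposited. The gene higher after centring was Bhlhe40, which encodes the E-box repressor DEC1. It had 32.2 in saline and 178 in 3-NP, a log2 ratio of 2.03. On the day 3 design it had 162 and 345, a log2 ratio of 0.99. At day 3, 6 components were measured, with a median of 0.48. After centring, 1 of them was at least 2-fold higher and 0 lower, against 9.21% and 8.18% of all genes. As deposited, 2 were higher and 0 lower, against 10.9% and 6.42%. The day 3 gene higher after centring was Cry1, which encodes a cryptochrome repressor and is another target of ROR elements. It had 47.7 in saline and 131 in 3-NP (log2 ratio 1.35).

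A few other components are named because of their place in the loop, after their values were seen. Clock, the partner of Bmal1, had 127 and 134 at day 1, a log2 ratio of -0.37 that turned to 0.07 as deposited. Bhlhe41, which encodes DEC2, had 551 and 500 (-0.58, or -0.14 as deposited). Cry2 had 86.1 in saline and 210 in 3-NP at day 1 (0.85, or 1.29 as deposited). Its dimmer probe set was under the saline floor and below the filter, with a bound of 0.23. Nfil3, which encodes the repressor E4BP4 that competes with the PAR bZIP proteins for D-boxes, had 15.2 in saline, under the floor, and 57.5 in 3-NP, below the filter, so it was at least 2.48-fold higher. Usp2, a widely rhythmic deubiquitinase gene, had 103 and 73.1 (-0.94, but -0.50 as deposited, within the yardstick). A dimmer Usp2 probe set that did not pass the filter gave -0.46. Npas2, the alternative partner of Bmal1, had 66.4 and 110 at day 3 (0.63), within the yardstick.

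Genes known as outputs of the clock or of PAR bZIP factors included several with higher signals in the 3-NP array at day 1. Of 20 listed, 10 were measured, with a median of 0.62 (1.06 as deposited), and 5 were at least 2-fold higher and 0 lower under either scaling, against 7.76% and 6.47% of all genes after centring and 17.9% and 2.62% as deposited. After centring 4 of the 10 lay below the median gene, and 3 were below 0 as deposited. Rgs16, a regulator of G protein signalling, had 20.6 in saline and 384 in 3-NP (3.78), the cell cycle inhibitor gene Cdkn1a 118 and 566 (1.83) and Tspan4 80.0 and 368 (1.76). At day 3, 5 were measured, with 2 higher and 1 lower, against 9.21% and 8.18% of all genes, and a median of -0.60. Noct, which encodes the rhythmic phosphatase nocturnin, had 49.6 and 207 (1.96). Nampt, an enzyme of NAD synthesis, had 21.4 and 68.5 (1.58), after 65.9 and 224 (1.33) on the day 1 design. Ppargc1a, the coactivator PGC-1 alpha gene, had 249 and 122 (-1.13, and -1.40 by another probe set). Several of these genes also respond to stress and inflammation.

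Per1 and Per2 are also induced by glucocorticoids and, through cyclic AMP response elements, by CREB, so both sets of inducible genes were set beside them. Of 11 measured genes of the cyclic AMP and CREB list at day 1, which include Per1 and Per2, 8 were at least 2-fold higher and 1 lower under either scaling, with a median of 1.66 (2.10 as deposited). All genes gave 7.76% higher and 6.47% lower after centring, and 17.9% and 2.62% as deposited. The lower one was Per2. Fos had 41.1 and 629 (3.50), Nr4a2 18.2 and 137 (2.48) and Junb 46.1 and 299 (2.26). For Fos and Nr4a2 a second probe set was under the floor throughout the pair. At day 3, Crem, which encodes the CREB-related modulator, had 120 and 503 (1.96), with 1.58 and, below the filter, -0.15 by others, and Nr4a3 had 13.3 and 47.4 (1.74).

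The glucocorticoid list, which holds Per1 but not Per2, had 11 measured genes at day 1. Of these, 3 were at least 2-fold higher and 1 lower (5 and 1 as deposited). The median of the list was -0.12, or 0.31 without centring. The shares of all genes higher and lower were again 7.76% and 6.47%, or 17.9% and 2.62% as deposited. Its ends were the sulfotransferase gene Sult1a1, with 286 and 33.6 (-3.53), and Cebpd, a C/EBP transcription factor gene, with 75.4 and 714 (2.81). Mt2A, a metallothionein gene, had 1624 and 9070 (2.04). At day 3, Fkbp5, which encodes a glucocorticoid receptor co-chaperone, had 5.43 in saline, under the floor, and 32.1 in 3-NP, at least 3.25-fold higher. Among the measured genes of the glucocorticoid list, Tsc22d3 (-0.68) and Sult1a1 were below Per1, the former named after its value was seen. In the cyclic AMP and CREB list Per2 and Per1 had the lowest ratios of the 11.

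**Figure D3:**
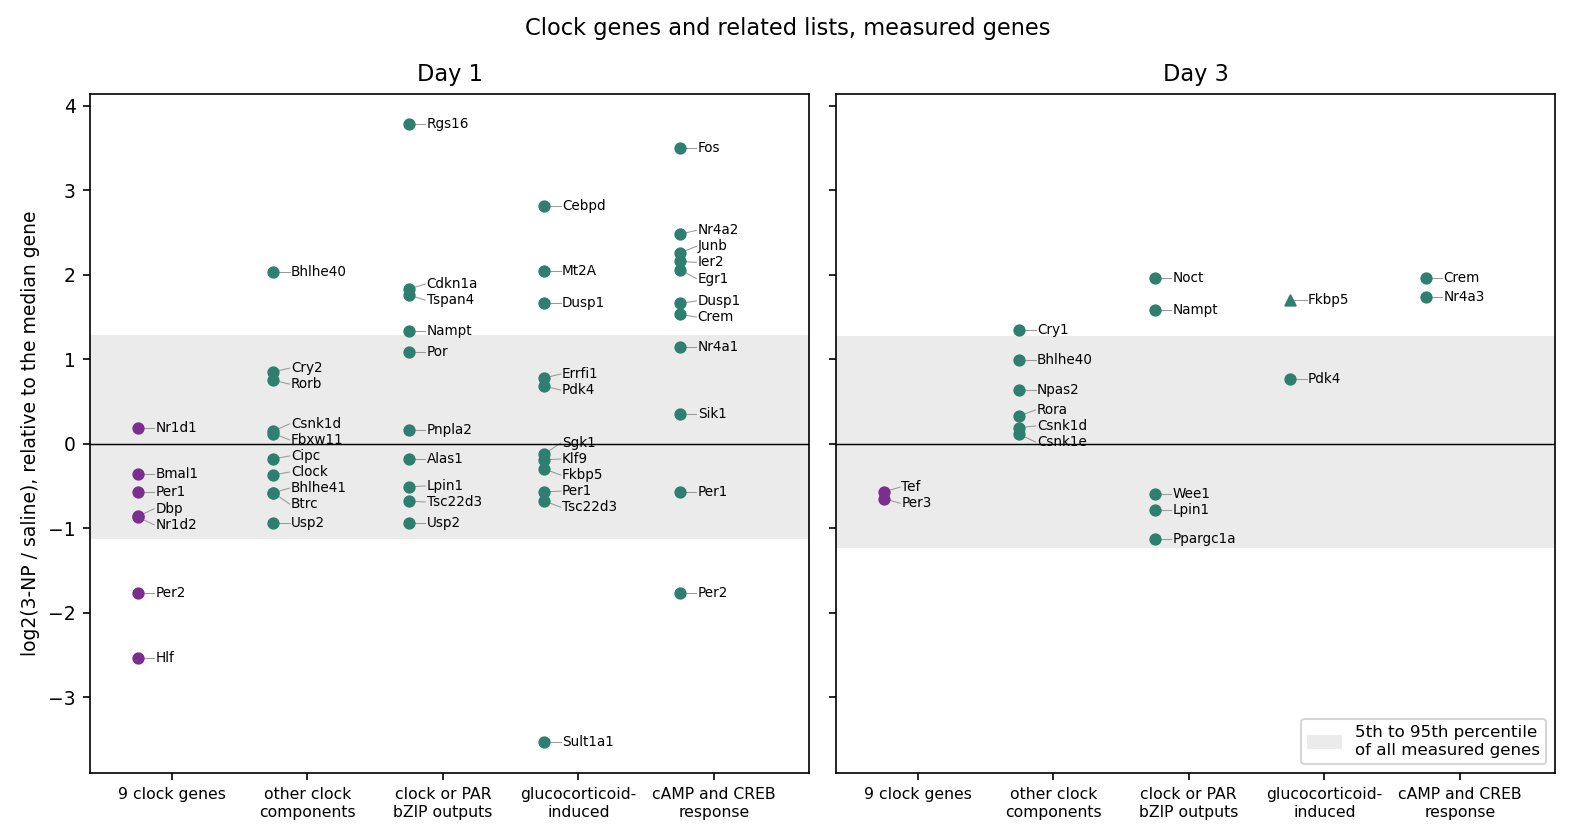
log2 ratio of 3-NP over saline relative to the median gene for the measured genes of the clock set (purple) and of 4 related lists (green), 1 array per group, with bounds as triangles and the grey band from the 5th to the 95th percentile of all measured genes (-1.11 to 1.28 at day 1, -1.22 to 1.27 at day 3). Hlf and Per2 lie below the band at day 1, while Bhlhe40, Rgs16 and most cyclic AMP and CREB genes lie above it; values near 0, such as Bmal1 and Clock, change side without centring.

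Marker genes of the dissected tissue were also lower in the 3-NP array at day 1, beside Hlf and Per2. For these counts the shares over all genes were 6.47% lower and 7.76% higher, or 2.62% and 17.9% as deposited. Of 10 measured spiral ligament markers 6 were at least 2-fold lower and 1 was higher, or 4 and 2 as deposited. Their median log2 ratio was -1.07, with a summed signal of 13740 in saline and 8657 in 3-NP. All marker sums here and below are of deposited signals, without centring. They cover every marker of a list on the design, also those that were not measured. Bone and cartilage markers had 6 of 7 lower, or 4 as deposited, with sums of 1633 and 655, and of 5 stria markers 4 were lower (2 as deposited), with sums of 2501 and 1237. Macrophage and neutrophil markers had 2 of 7 higher and 0 lower, with sums of 1594 and 3150, while Ptprc and Aif1 were under the floor in both arrays. Of 5 neuron and Schwann markers 3 were higher and 1 lower, with sums of 2734 and 2323. The lower one was Sncg, with 2114 and 921, while the deposited signals of Egr2, Nefl, Prph and Tubb3 were all higher in 3-NP. In such bulk tissue fewer cells of a type and less RNA per cell cannot be told apart, and the part of these markers in the clock values was not tested.

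Skeletal muscle markers had sums of 452 and 706 at day 1, with Myh4 and Acta1 under the floor in both arrays, and the red cell markers Hbb and Alas2 together had 3819 and 7495. After centring, 0 of 2 measured muscle and 0 of 2 red cell markers were at least 2-fold apart, with medians of 0.45 and 0.63. As deposited, 1 of each was at least 2-fold higher, against 17.9% of all genes. At day 3, beside Tef and Per3, 1 of 2 spiral ligament markers and 3 of 4 stria markers were at least 2-fold lower, against 8.18% of all genes, and Tyrp1, a pigment enzyme gene, was higher. The summed stria signal was 3312 in saline and 1552 in 3-NP. Both macrophage markers on that design, Mrc1 and Cd163, were at least 2-fold lower, but 0 of them as deposited.

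Centring and the choice of probe set moved the clock ratios most among the 9 alternatives. The Hlf ratio lay between -2.58 and -2.10 and that of Per2 between -1.81 and -1.34 over the alternatives, and both stayed at least 2-fold lower in all 9. Little but the centring could move them, since each rests on a single measured probe set above both array medians. Dbp ranged from -0.90 to -0.42 and Nr1d2 from -0.91 to -0.43, each on both sides of the yardstick. Averaging probe sets moved Nr1d2 from -0.87 to -0.63 and Tef at day 3 from -0.57 to -0.17.

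**Figure D4:**
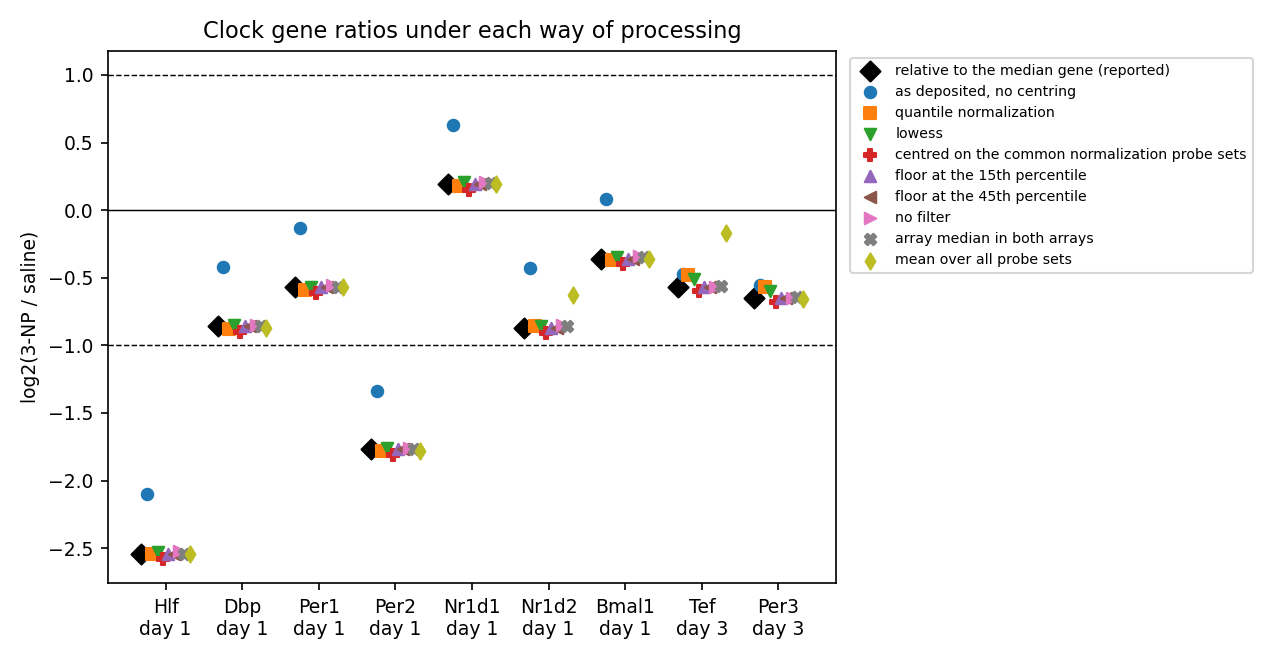
log2 ratio of 3-NP over saline of each measured clock gene under the reported processing (black diamonds) and 9 alternatives (coloured symbols), with dashed lines at 2-fold. Leaving out the centring moves all 7 day 1 genes up together, Hlf to -2.10, Per2 to -1.34 and Bmal1 across 0 to 0.08, and averaging probe sets brings Tef at day 3 to -0.17.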

How the data were processed

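The deposited values are linear signal intensities, 1 for each probe set, which the authors made in MAS5 according to the submitters' processing notes. The MAS5 version, scaling target, detection calls and array build were not given in the sources used here. Probe sets were named from the platform annotation and updated by gene identifier to RefSeq (GRCr8). Of 15866 probe sets outside the controls at day 1, 12783 had 1 symbol, 312 several and 2771 none; on the day 3 design these were 7564, 100 and 7612 of 15276. Of 10411 and 5667 genes, 10378 and 5636 were matched in RefSeq.

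Signals were floored at the 30th percentile, filtered at the 50th, and reduced to the brightest probe set per gene by mean log2. Ratios were centred on the median measured gene. Calculations used Python 3.11.15 with pandas 2.3.3 and statsmodels 0.14.6 and were tested on simulated data. That test planted changes only in bright probe sets with little noise, so it does not speak to dim genes. All 9 clock genes were named, and by rule up to 3 genes of each related list and day, taking those at least 2-fold apart; Clock, Bhlhe41, Cry2, Nfil3, Usp2, Npas2, Tsc22d3, Nampt at day 1 and Bhlhe40 at day 3 were named besides, after their values were seen, as were the tissue markers. Likeness of patterns was not scored, because 2 arrays on a design define none. The genes and lists were chosen with earlier results of these data known, and the searched motif letters after the promoter sequences were seen. Alternatives covered centring, floor, filter and probe-set choice. The number of arrays limits the precision.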

Additional observations from a re-analysis of the deposited data

Results flagged for a closer look

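Fkbp5, a glucocorticoid-induced gene outside the clock set, lay on opposite sides of the median gene on the 2 days, with a log2 ratio of -0.30 at day 1 (56.6 in saline and 62.1 in 3-NP, 0.13 as deposited) and a bound of 1.70 at day 3. It was the single such gene among 7 genes of the related lists measured on both designs. The difference between days was not tested, and day and array design cannot be told apart.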

How the results depend on the processing

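Over 9 alternatives the counts of clock genes at least 2-fold apart stayed at 2 at day 1 and 0 at day 3. At day 1 the floor, filter and averaging settings could hardly change Hlf and Per2. Each has a single measured probe set, above both array medians. Without centring, the median log2 ratio of the measured clock genes at day 1 moved from -0.86 to -0.42. Under the other 8 alternatives it lay between -0.90 and -0.63, within the probe-set SD. At day 3 it lay between -0.64 and -0.42 over all 9. Requiring the array median in both arrays lowered the counts of all genes at least 2-fold apart from 930 to 515 at day 1 and from 691 to 348 at day 3, with fewer genes entering. No clock gene that was at least 2-fold apart changed direction, while Bmal1 at day 1 turned from -0.36 to 0.08 without centring. Tef at day 1 entered without a filter, with a bound of -0.50. No paired analysis was possible because each group has 1 array and the labels give no replicate numbers, and for the same reason no array could be left out. Signals near the floor limit Tef and Per3 at day 1 and Per2 at day 3.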
